A study of Rattus norvegicus with 44 samples.

Results

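The 10 genes described here are protein-coding genes of the mitochondrial DNA whose products are built into the respiratory chain. They were taken by symbol from the normalized count tables of 2 hippocampal regions: 10 of the 20050 rows of the dentate gyrus (DG) table and 9 of the 20003 rows of the CA1 table, where Mt-cyb was not analysed here. Mt-nd1, Mt-nd2, Mt-nd4, Mt-nd5 and Mt-nd6 encode subunits of complex I, Mt-cyb of complex III, Mt-co1, Mt-co2 and Mt-co3 of complex IV, and Mt-atp6 of complex V, the ATP synthase. All of them passed the filter on low values in each region where they had a row.

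The respiratory chain passes electrons from NADH and succinate to oxygen and pumps protons across the inner mitochondrial membrane, and the ATP synthase uses that gradient to make ATP, on which neurons depend heavily. Most chain subunits are encoded in the nucleus, so each of complexes I, III, IV and V is assembled from the products of both genomes. Mitochondrial genes are transcribed by a dedicated polymerase, POLRMT, as long RNAs from each strand that are then cut at the tRNAs. Mt-nd6 alone among these genes is read from the light strand, and all the others come from the heavy strand RNA.

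The series holds 44 libraries of polyadenylated RNA, a CA1 and a DG library from 1 hippocampus per animal for 22 male rats. The study asked how repeated peripheral endotoxin and ageing each change hippocampal expression. Young rats of 5 to 7 months received intraperitoneal saline (young vehicle, 8 rats) or 1 mg/kg lipopolysaccharide (LPS), a bacterial endotoxin (young LPS, 8 rats), once a week for 7 weeks. Aged rats of 14 to 16 months received saline on the same schedule (aged vehicle, 6 rats), and no aged group with LPS was analysed here. Tissue was taken 48 h after the last injection, and each rat gave 1 library per region. The labels name no strain.

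Values below are the deposited normalized read counts, called normalized reads. The tables of CA1 and DG were normalized separately, so levels are not compared between regions. Gene lengths were not at hand either, so levels are not compared between genes. Library depth, recovered from the values, ran from 12130182 to 23519792 reads over the 42 libraries where it could be recovered. The labelled regions were checked against marker genes: Wfs1, a CA1 pyramidal marker, lay between 11165 and 41628 normalized reads in CA1 and between 522 and 10922 in DG, while Prox1, a granule cell marker, lay between 298 and 1787 in CA1 and between 1831 and 4129 in DG. The pyramidal markers Fibcd1 and Mpped1 did not overlap between the regions either, but the granule markers C1ql2 and Dsp did. C1ql2 reached 3000 normalized reads in CA1, above its lowest DG value of 1877. Dsp reached 674 in CA1, above its lowest DG value of 605. Both regions therefore held some RNA of the other's principal neurons, in amounts that varied between rats. In pieces of tissue, fewer cells of a type and less RNA per cell cannot be told apart.

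The members held a large part of every library. In CA1 the 9 members took 9.26% ± 2.46 of the library in young vehicle rats (SD, n = 8), 8.33% ± 1.64 in young LPS rats (SD, n = 8) and 9.31% ± 1.04 in aged rats (SD, n = 6). In DG the 10 members took 8.31% ± 1.83, 8.30% ± 1.08 and 8.03% ± 0.50 in the same order. The group ranges overlapped in both regions. In CA1 they ran from 7.77% to 15.3% in young vehicle, from 5.41% to 11.0% in young LPS and from 7.60% to 10.4% in aged rats. In DG they ran from 6.41% to 12.4%, from 7.14% to 10.2% and from 7.48% to 8.74%. Rats thus differed more within a group than the group means differed from each other.

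**Figure D1:**
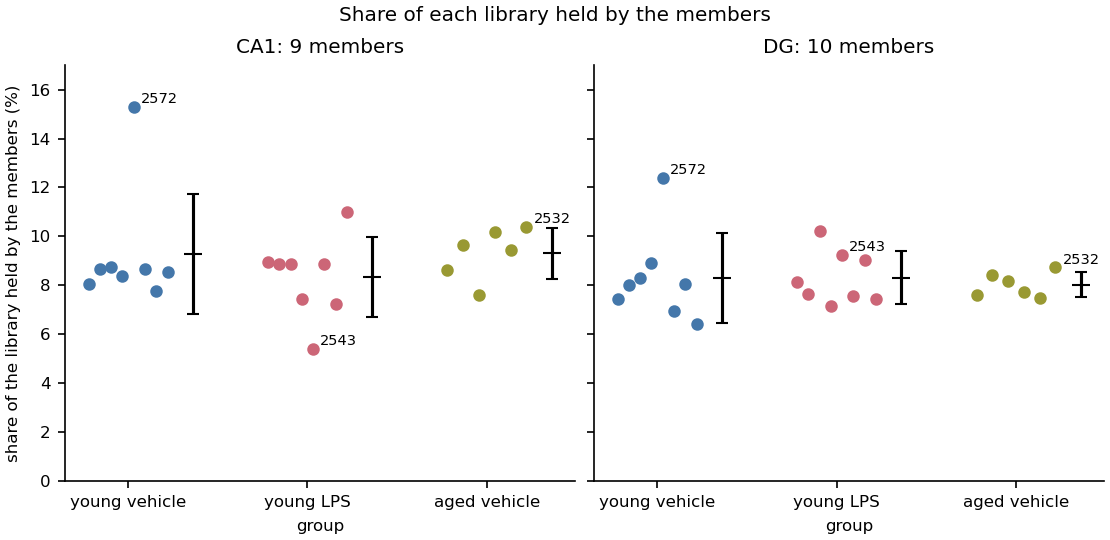
Share of each library held by the members (vertical axis, percent of the library's summed values) for each rat (points) of the 3 groups, in CA1 (left, 9 members) and DG (right, 10 members), with the group mean and SD beside the points. Young vehicle rat 2572 lies highest in both regions, at 15.3% and 12.4%, while young LPS rat 2543 is lowest in CA1 at 5.41% and not in DG.

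One rat stood apart in both regions. Young vehicle rat 2572 had 15.3% of its CA1 library and 12.4% of its DG library in the members. Without it the young vehicle mean was 8.40% ± 0.37 in CA1 and 7.72% ± 0.85 in DG (SD, n = 7). Its values were the highest of all 22 rats for 6 of 9 members in CA1 and 7 of 10 in DG. Its CA1 library was the deepest of the 20 with a recovered depth and its DG library ranked 19 of 22 in depth. Most lists of nuclear-encoded subunits were also high in this rat. Of complexes I to V, complex IV lay furthest above the mean of all libraries. Its mean log2 level was 0.37 above it in CA1 and 0.44 in DG, the highest of 22 each time. Complexes I, III and V lay 0.28 to 0.34 above it in the 2 regions. Complex II lay 0.21 above it in CA1 and 0.08 in DG, where it ranked 6 of 22. Cytosolic ribosomal genes lay 0.58 and 0.52 above it, the second highest of 22 each time. The microglial and endothelial marker lists of rat 2572 were the highest of 22 in each region too. They lay 0.60 and 0.45 above the mean in CA1 and 0.36 and 0.59 in DG on the same log2 scale. In DG its choroid plexus (1 gene), meningeal (3 genes) and blood (3 genes) markers lay 2.43, 2.07 and 1.51 above the mean, each the second highest of 22. The part of these markers in the members' values was not tested.

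A second library stood apart by its pattern rather than by its sum. In the CA1 library of aged rat 2532, Mt-nd1 at 286395 and Mt-co3 at 354500 normalized reads were the highest of 22, while Mt-atp6 at 133500 was the lowest. Mt-atp6 and Mt-co3 are neighbours on the heavy strand and are cut from a common precursor. The ratio of Mt-co3 to Mt-atp6 was 2.66 in this library and between 0.51 and 1.04 in the other 21. Mt-atp6 shares its RNA with Mt-atp8, another ATP synthase gene whose reading frame overlaps it, and the ratio of Mt-atp6 to Mt-atp8 was 1.33 here and at least 4.23 in the others. The DG library of the same rat had a Mt-co3 to Mt-atp6 ratio of 0.73, close to the DG median of 0.80. How reads in overlapping genes, or reads that also match nuclear copies of mitochondrial DNA, were counted is not given in the sources used here.

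That CA1 library of rat 2532 was unlike the others in nuclear genes as well. Its nuclear complex I subunits averaged −0.87 from the mean of all libraries on the log2 scale, against a lowest value of −0.20 elsewhere. Its complex V subunits averaged −0.40, the lowest of 22, and its mitochondrial transcription genes 0.66, the highest of 22. In rat 2572 the order was the other way round, with complex I at 0.34, complex V at 0.30 and mitochondrial transcription at −0.36 in CA1. The CA1 library of rat 2532 was not apart in these lists alone. Its cytosolic ribosomal genes averaged −0.94, against a lowest value of −0.25 elsewhere. Interneuron markers were the lowest of 22 there, at −0.48, while the complex III genes lay at 0.12. It was also the shallowest of the 20 CA1 libraries with a recovered depth, at 12292348 reads. Each group result below therefore also rests on whether these libraries are in the fit.

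**Figure D2:**
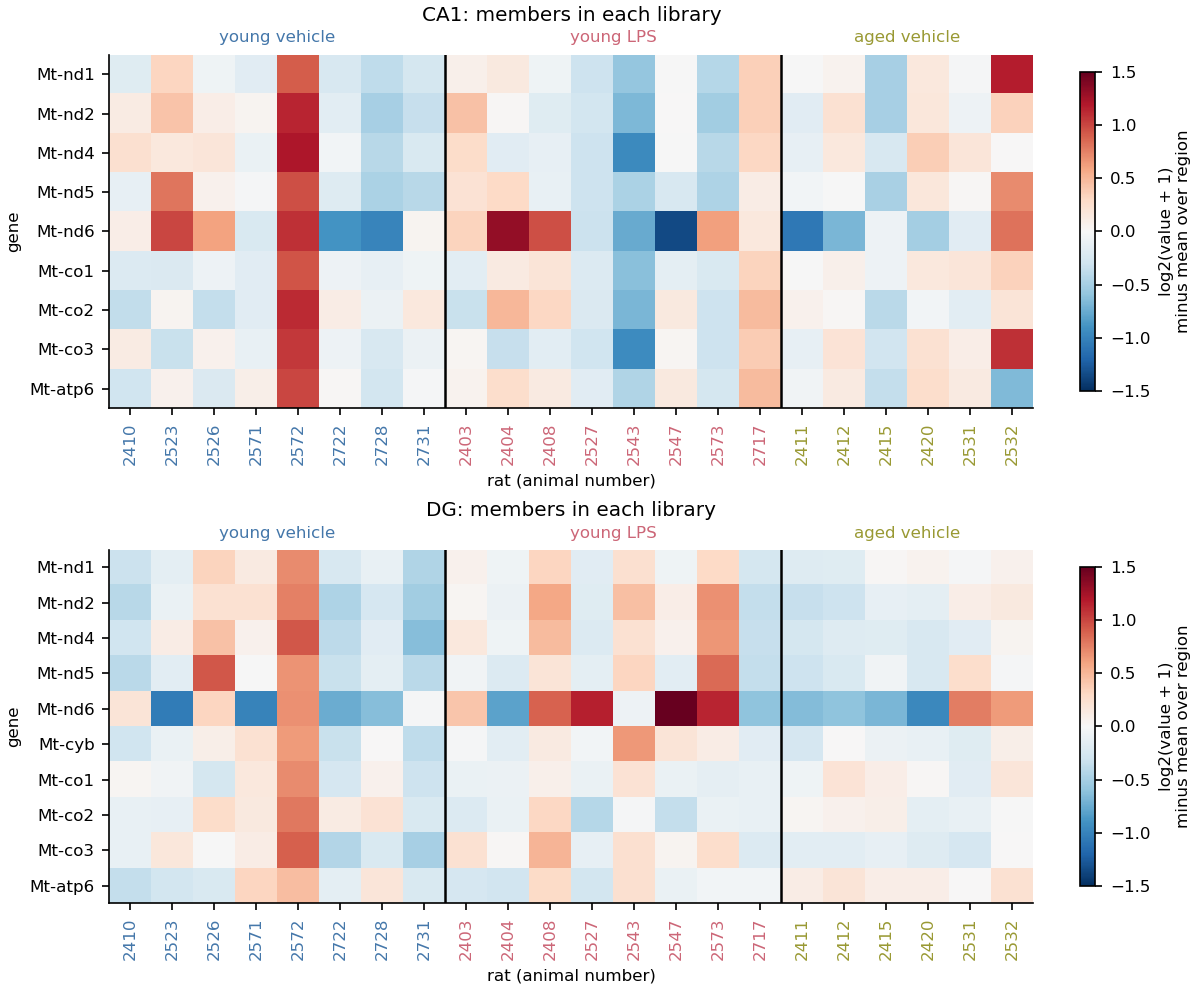
Log2(value + 1) of each member (rows) in each library (columns, by rat number, with lines between the groups), minus the gene's mean over the region, in CA1 (top) and DG (bottom). Rat 2572 is high for all members in both regions, rat 2543 is low for all members in CA1, and Mt-nd6 follows a pattern of its own.

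No member passed the test for the effect of LPS in CA1. Moderated linear models (limma) on log2(value + 1), with Benjamini-Hochberg adjustment over all 14915 genes, called 0 of 9 members at an adjusted p under 0.05, beside 0% of all genes tested. At an unadjusted p under 0.05 it was again 0 of 9 members, beside 6.87% of all genes, and edgeR and DESeq2 on the recovered reads also called 0. The groups overlapped for all 9 members, beside 0.0134% of all genes without overlap. Of the members 8 of 9 had a negative sign, while 52.2% of all genes were positive. Members of a library move together, so their signs are not independent. The median log2 difference of the members was −0.09, beside 0.01 for all genes tested. The sign rested on rat 2572: without it the median was 0.04, and in the other 21 fits without 1 library it was negative, down to −0.16.

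Among the complex I genes in CA1, Mt-nd4 had the lowest p for LPS. Its values ran from 71532 to 220123 normalized reads in young vehicle rats, with a median of 99598, and from 48986 to 118534 in young LPS rats, with a median of 86200. The top of the vehicle range is rat 2572, the next vehicle rat had 112858, and the groups overlapped over most of their range. The log2 difference was −0.30 (SE 0.19, adjusted p = 0.654 by limma). Mt-nd1, Mt-nd2 and Mt-nd5, which with Mt-nd4 form part of the membrane arm of complex I, had log2 differences of −0.09, −0.21 and −0.20. Their adjusted p by limma lay between 0.703 and 0.866.

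None of the complex IV subunits was closer to a difference than Mt-nd4. Mt-co1, which holds the oxygen-reducing centre, had a median of 393116 normalized reads in young vehicle rats (363379 to 812627) and of 380091 in young LPS rats (273695 to 529621). Apart from rat 2572 the vehicle rats lay between 363379 and 402347, inside the LPS range. Its log2 difference was −0.09, with a 95% interval from −0.39 to 0.21. Mt-co2, which takes electrons from cytochrome c, differed by −0.07 and Mt-co3 by −0.25 on the log2 scale. Mt-atp6, part of the proton channel of the ATP synthase, differed by −0.02, with an interval from −0.37 to 0.32.

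Age left the members without a call in CA1 too. Limma called 0 of 9 members, beside 0.0134% of all genes, and 0 of 9 had an unadjusted p under 0.05, beside 12.6% of all genes. edgeR and DESeq2 called 0 as well, and the groups overlapped for every one of the 9 members (0.235% of all genes had no overlap). Log2 differences of aged minus young vehicle ran from −0.38 for Mt-nd6 to 0.16 for Mt-co3, with a median of −0.06 beside 0.00 for all genes. For Mt-co1 all 6 aged rats, at 399949 to 534445 normalized reads, lay above the young vehicle median of 393116, yet rat 2572 at 812627 lay above all of them. Apart from rat 2572 the young vehicle rats lay between 363379 and 402347, so that only the lowest aged value fell in their range. With all rats the log2 difference of Mt-co1 was 0.11 (SE 0.16, adjusted p = 0.730 by limma). Without rat 2572 the members' median turned to 0.09, and without vehicle rat 2728 it was −0.13.

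The comparison of young LPS with aged rats gave many calls over all genes in CA1 and none among the members. Limma called 8.73% of all genes, 3.49% higher and 5.24% lower, and 0 of 9 members. At an unadjusted p under 0.05 the counts were 35.8% of all genes and again 0 of 9 members, and edgeR and DESeq2 called 0 members. The groups overlapped for all 9 members, beside 0.838% of all genes without overlap. The members' median log2 difference was −0.18, beside 0.02 for all genes. Of the members 6 of 9 were negative, while 52.0% of all genes were positive. Mt-co3 had the lowest p: its 8 young LPS values ran from 85947 to 214584 normalized reads (median 140916) and its 6 aged values from 135556 to 354500 (median 183866). Of the LPS rats 7 of 8 lay below the aged median, and the log2 difference was −0.41 (SE 0.21, adjusted p = 0.166 by limma). Without aged rat 2532, whose Mt-co3 was 354500, the members' median was −0.04. The count over all genes did not hold either: limma called 1302 genes with all libraries, 0 to 2 in 15 of the 22 fits without 1 library, that without rat 2532 among them, and 1411 to 3399 in the other 7.

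**Figure D3:**
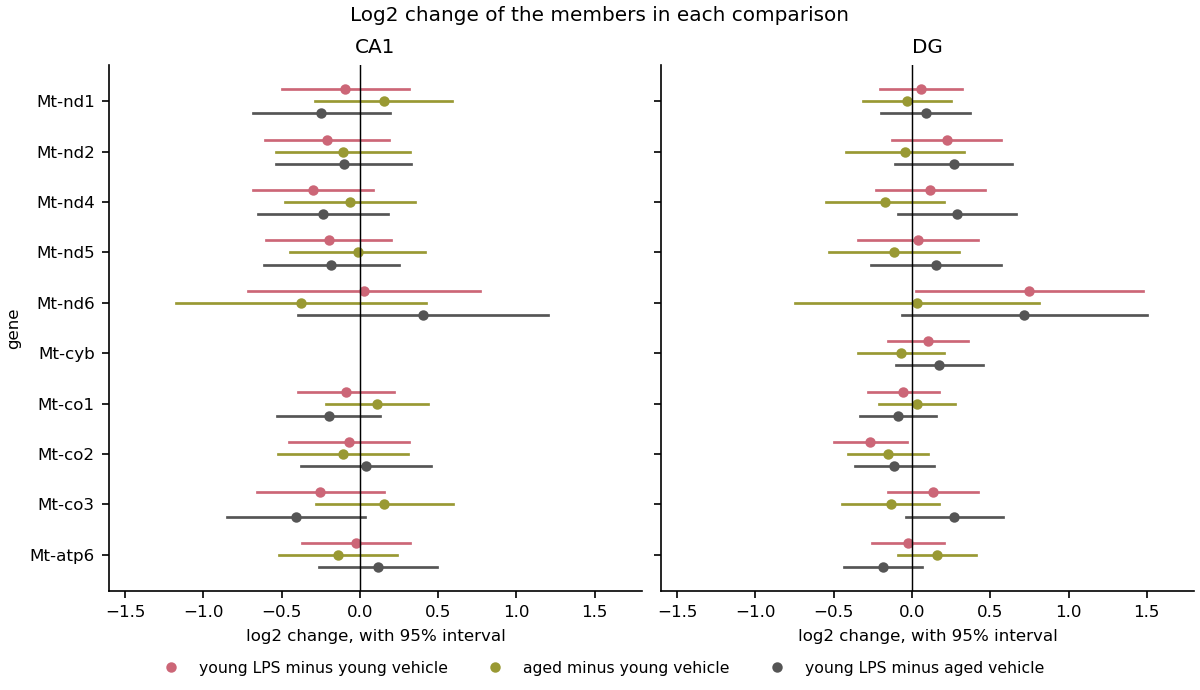
Log2 difference of each member (points) with its 95% interval (lines) in the 3 comparisons, in CA1 (left) and DG (right, where Mt-cyb was also tested). Only the intervals of Mt-co2 and Mt-nd6 for LPS in DG exclude 0, before adjustment over all genes; the interval of Mt-nd6 is the widest in each comparison.

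In DG, 2 members lay closest to a difference for LPS, and they pointed in opposite directions. Limma called 0 of 10 members, beside 0.0134% of all genes. At an unadjusted p under 0.05 it was 2 of 10 members beside 7.53% of all genes (1 higher, beside 3.84%, and 1 lower, beside 3.68%), and edgeR and DESeq2 called 0. The groups overlapped for all 10 members, beside 0.0403% of all genes without overlap. The members' median log2 difference was 0.08 beside −0.00 for all genes, with 7 of 10 positive. Over the fits without 1 library it stayed positive, from 0.0097 without vehicle rat 2731 to 0.18 without rat 2572, and was 0.03 without LPS rat 2543 or 2573.

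Mt-nd6, the light strand gene, was the member on the higher side. Young vehicle rats had 26.6 to 90.7 normalized reads (median 45.6) and young LPS rats 31.7 to 175 (median 89.6). LPS rats 2547, 2527, 2573 and 2408, at 175, 127, 125 and 104, lay above every vehicle rat, while LPS rats 2404 and 2717, at 31.7 and 36.5, lay among the lowest vehicle values. The log2 difference was 0.75 (SE 0.35, unadjusted p = 0.043, adjusted p = 0.659 by limma). Mt-co2 was the member on the lower side, with 140710 to 284571 normalized reads in vehicle rats (median 180984) and 122140 to 204123 in LPS rats (median 152831). LPS rat 2408 at 204123 was the only one of 8 above the vehicle median. The log2 difference was −0.27 (SE 0.11, unadjusted p = 0.028, adjusted p = 0.614 by limma), and without rat 2572 it was −0.17.

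The other DG members differed less with LPS. Mt-cyb, the cytochrome of complex III that passes electrons from ubiquinol to cytochrome c, had 116851 to 236921 normalized reads in vehicle rats (median 147414) and 135043 to 237616 in LPS rats (median 157218). The highest value of each group, in vehicle rat 2572 and LPS rat 2543, was nearly the same, and the log2 difference was 0.10 (SE 0.12). Mt-nd1, Mt-nd2, Mt-nd4 and Mt-nd5 differed by 0.06, 0.22, 0.12 and 0.04, Mt-co1 by −0.05, Mt-co3 by 0.13 and Mt-atp6 by −0.02 on the log2 scale. The narrowest interval among the 10 was that of Mt-co1, from −0.28 to 0.17.

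Age in DG gave 0 of 10 members by limma, beside 0.0134% of all genes, and 0 of 10 at an unadjusted p under 0.05, beside 2.99% of all genes. edgeR and DESeq2 called 0 here too. No member was free of overlap, beside 0.0738% of all genes. Differences of aged minus young vehicle ran from −0.17 for Mt-nd4 to 0.16 for Mt-atp6 on the log2 scale, with a median of −0.06 that turned to 0.05 without rat 2572 and was −0.12 without rat 2532. Mt-co3 lay between 122332 and 146974 normalized reads in the 6 aged rats and between 103555 and 271441 in the 8 young vehicle rats. Mt-nd6 was spread as widely in aged rats (28.2 to 96.2) as in young vehicle rats (26.6 to 90.7). For Mt-atp6 all 6 aged rats, at 172661 to 202267, lay above the young vehicle median of 151317, though 3 vehicle rats at 195605, 215009 and 238308 reached into or beyond that range. Its log2 difference was 0.16 (SE 0.12). Mt-co2 went the other way: all 6 aged rats lay below the young vehicle median of 180984, with a log2 difference of −0.15 (SE 0.12).

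Young LPS against aged rats in DG gave 0 of 10 members by limma, beside 0.0134% of all genes, and 0 of 10 at an unadjusted p under 0.05, beside 9.1% of all genes. edgeR and DESeq2 called 0 members, and no member was free of overlap, beside 0.443% of all genes. The median difference was 0.16 on the log2 scale, from 0.11 to 0.21 over the fits without 1 library, with 7 of 10 positive. Mt-nd6 at 0.72 (SE 0.38) and Mt-co3 at 0.27 (SE 0.15) had the lowest p of the members, with adjusted p of 0.584 and 0.608 by limma. Mt-co3 was above the aged median of 130360 normalized reads in 7 of 8 LPS rats.

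The effect in CA1 was then set against that in DG within each rat, for the 9 members and 14637 genes measured in both regions. Limma called 0 of 9 members for LPS (0.00683% of all genes), 0 of 9 for age (0% of all genes) and 0 of 9 for young LPS against aged rats (8.98% of all genes). That last count of 1315 genes was 0 or 1 in 7 of the 22 fits without 1 rat, with 1 without rat 2532, and 488 to 2481 in the other 15. At an unadjusted p under 0.05 the counts were 0 of 9, 0 of 9 and 2 of 9, beside 13%, 5.21% and 32.6% of all genes; edgeR and DESeq2 were not run on this difference. Mt-co3 and Mt-nd4 were the 2. For Mt-co3 the log2 difference of young LPS minus aged rats was −0.41 in CA1 and 0.27 in DG, so that CA1 minus DG was −0.68 (SE 0.23, unadjusted p = 0.00672, adjusted p = 0.057 by limma). For Mt-nd4 it was −0.52 (SE 0.23, adjusted p = 0.127 by limma). The Mt-co3 value was −0.53 (adjusted p = 0.170 by limma) without rat 2532. It was −0.78 (adjusted p = 0.034 by limma) with a term in the fit for the leading 2 digits of the animal number, called the number series here.

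The members were then compared between the regions of a rat. Across the 22 rats, Pearson's r between CA1 and DG ran from 0.10 for Mt-nd5 to 0.47 for Mt-co1 and Spearman's rho from −0.23 to 0.10. For the 8 heavy strand genes r ran from −0.25 to −0.03 without rat 2572, so their positive values rest on that rat. For Mt-nd6 r was 0.11 with all rats, 0.06 without rat 2572, and 0.48 (rho 0.42) without its 2 farthest rats, 2404 and 2547. Young LPS rat 2543 differed between its regions: it was the lowest of 22 for 6 of 9 members in CA1, with 5.41% of the library, and in DG it had 9.24%, above the young LPS median of 7.90%. Its CA1 library also had the highest Prox1, C1ql2 and Dsp, at 1787, 3000 and 674 normalized reads. Its DG library had the lowest C1ql2, at 1877, but not the lowest Prox1 or Dsp. The part of these granule cell markers in the difference between its regions was not tested. These correlations are descriptions over 22 rats. The 2 libraries of a rat share the animal, and with it the hippocampus, the group and the number series. After the group means were taken out, r over all rats ran from 0.07 for Mt-nd6 to 0.45 for Mt-co1.

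Within a region the heavy strand genes were positively related from rat to rat, some only weakly. Over the 22 CA1 libraries Spearman's rho between pairs of heavy strand members had a median of 0.59, from 0.24 to 0.93, and the highest was that of Mt-nd1 with Mt-nd5. In DG the median was 0.57, from 0.20 to 0.95, the highest being Mt-nd2 with Mt-nd4. With Mt-nd6 included the medians were 0.52 and 0.44 and the lowest values 0.04 and −0.19. Mt-nd6 had the lowest median rho with the other members in each region, 0.27 in CA1 and 0.29 in DG. It was also the most variable member, with a highest value 6.52 times the lowest in CA1 and 6.57 times in DG, against at most 4.49 and 2.97 times for the others. With at most 199 normalized reads in any library it was the member with the fewest reads, so counting error weighs more on it. The part of counting error in its spread was not tested. These pairs share libraries and depth.

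The level of the light strand gene was set against that of a heavy strand gene through the log2 ratio of Mt-nd6 to Mt-nd5, its neighbour on the opposite strand. The libraries hold polyadenylated RNA, and whether reads were counted by strand is not given in the sources used here, so reads of these neighbours may not be fully told apart and the ratio is not a measure of transcription. In DG the ratio was −10.24 ± 0.58 in young vehicle rats (SD, n = 8), −9.53 ± 0.84 in young LPS rats (SD, n = 8) and −10.09 ± 0.59 in aged rats (SD, n = 6). The difference for LPS in DG was 0.71 (two-sided exact permutation p = 0.0687, adjusted p = 0.293 over 6 comparisons). In CA1 the ratio was −9.63 ± 0.45, −9.41 ± 0.77 and −9.99 ± 0.55 in the same order of groups, and the largest difference was 0.59 for young LPS minus aged rats (two-sided exact permutation p = 0.139, adjusted p = 0.293). The other 4 differences lay between −0.36 and 0.56, with two-sided exact permutation p from 0.191 to 0.639. Group ranges overlapped in all 6 comparisons.

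**Figure D4:**
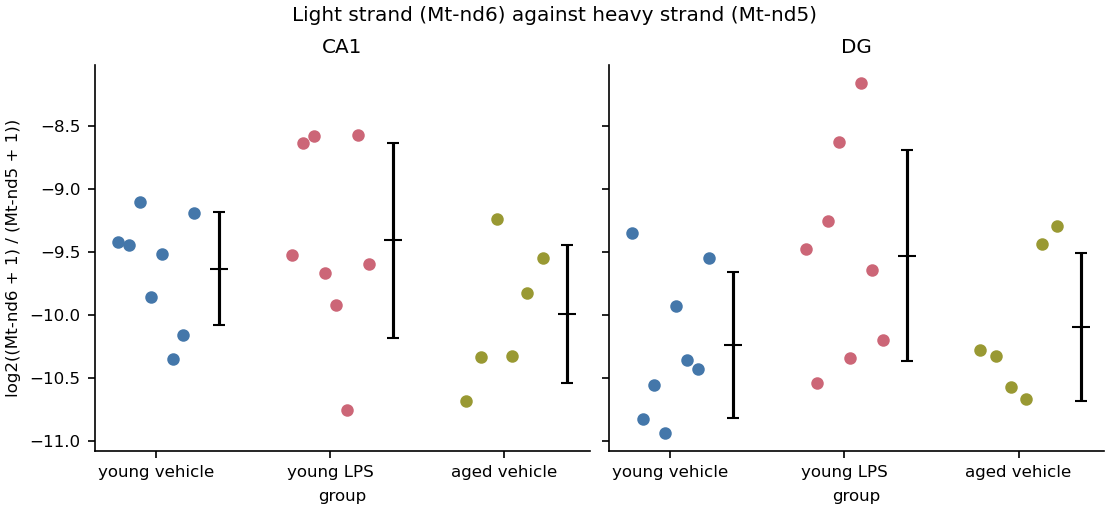
Log2 ratio of Mt-nd6 to Mt-nd5 (vertical axis, each value with 1 added) for each rat (points) by group, in CA1 (left) and DG (right), with the group mean and SD beside the points. In DG young LPS rats reach from −10.5 to −8.16 and vehicle rats from −10.9 to −9.35, so that the groups overlap, with 3 of 8 vehicle rats below the lowest LPS rat.

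The share of the library held by the members was also looked at within each number series, whose meaning the labels do not give. In CA1, the 4 young LPS rats of series 25 lay between 5.41% and 8.87% (median 7.35%) and the 4 young vehicle rats between 8.37% and 15.3% (median 8.71%). In series 24 the 3 LPS rats, at 8.86% to 8.96%, lay above the single vehicle rat at 8.06%, and in series 27 the single LPS rat at 11.0% lay above the 3 vehicle rats at 7.77% to 8.68%. The order of LPS and vehicle in CA1 therefore differed between series. In DG the medians of series 25 were 8.28% with LPS and 8.61% with vehicle, and both groups overlapped. Series 24 and 27 held a single vehicle or LPS rat each, and all aged rats were in series 24 and 25.

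The short mitochondrial genes that share RNAs with members followed them. Mt-nd4l, a complex I gene whose frame overlaps that of Mt-nd4, and Mt-atp8 had Spearman's rho of 0.86 and 0.79 with the mean of the members in CA1 and of 0.66 and 0.83 in DG, over 22 libraries. Mt-nd3, another complex I gene, had 0.79 in DG and was not analysed here in CA1. None of these passed the test in any comparison.

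Nuclear genes of the same complexes were less tied to the members. Over the 22 CA1 libraries, rho between the members' mean and the list mean was 0.17 for 37 complex I subunits, 0.19 for 4 of complex II, 0.26 for 10 of complex III, 0.28 for 10 of complex IV and 0.17 for 16 of complex V. In DG it was 0.49, 0.09, 0.44, 0.45 and 0.39. Without rat 2572 these were 0.05, 0.08, 0.15, 0.17 and 0.05 in CA1 and 0.41, 0.01, 0.36, 0.36 and 0.30 in DG. Genes for mitochondrial mass and import had 0.09 in CA1 and 0.31 in DG. For the 9 mitochondrial transcription genes rho was −0.05 and 0.10, for the 14 RNA processing and decay genes −0.15 and −0.10, and for the 10 DNA replication genes −0.26 and −0.29. Regulators of mitochondrial biogenesis had 0.19 and −0.25.

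Group effects on these nuclear lists were called in a single comparison, young LPS against aged rats in CA1. There limma called 8.73% of all genes, 5.24% lower and 3.49% higher, which is the background for each count that follows. It called 1 of 37 complex I subunits lower, Ndufs1 of the NADH-oxidising arm, at −0.58 on the log2 scale. Of the complex III list, which holds its electron acceptor cytochrome c, 2 of 10 were lower: the core subunit Uqcrc2 at −0.60 and Cycs at −0.62. Atp5mc1, 1 of 16 complex V genes, was higher at 0.33. Among 9 mitochondrial transcription genes 3 were lower: Tfam, which packages mitochondrial DNA and activates its promoters, at −0.37, Mterf1 at −0.53 and Mterf4 at −0.59. The RNA processing list had Fastk higher at 0.46 and Grsf1, of mitochondrial RNA granules, lower at −0.36, and Hspd1, the matrix chaperonin, was lower at −0.59. Adjusted p by limma for these lay between 0.0490 and 0.0497, just inside the threshold, and each was lost in at least 15 of the 22 fits without 1 library.

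Most complex I subunits had the opposite sign to Ndufs1. In the same comparison 30 of 37 complex I subunits were positive, beside 52.0% of all genes. Their median was 0.26, beside 0.02 for all genes. Of the transcription genes 8 of 9 were negative, with a median of −0.45. Without rat 2532 these medians were 0.07 and −0.35. Of the reference genes, Polrmt, the polymerase itself, was at 0.37 in CA1 (adjusted p = 0.101 by limma) and −0.33 in DG (adjusted p = 0.420 by limma). Lrpprc, which stabilises mitochondrial mRNA, was at −0.19 and −0.14, Ppargc1a, a coactivator of biogenesis, at −0.39 and 0.06, and the outer membrane import receptor Tomm20 at −0.58 and 0.08. Sdha of complex II was at 0.23 and −0.20, and Cs, the citrate synthase often used to gauge mitochondrial mass, at −0.01 and −0.31, with no call for any of them.

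**Figure D5:**
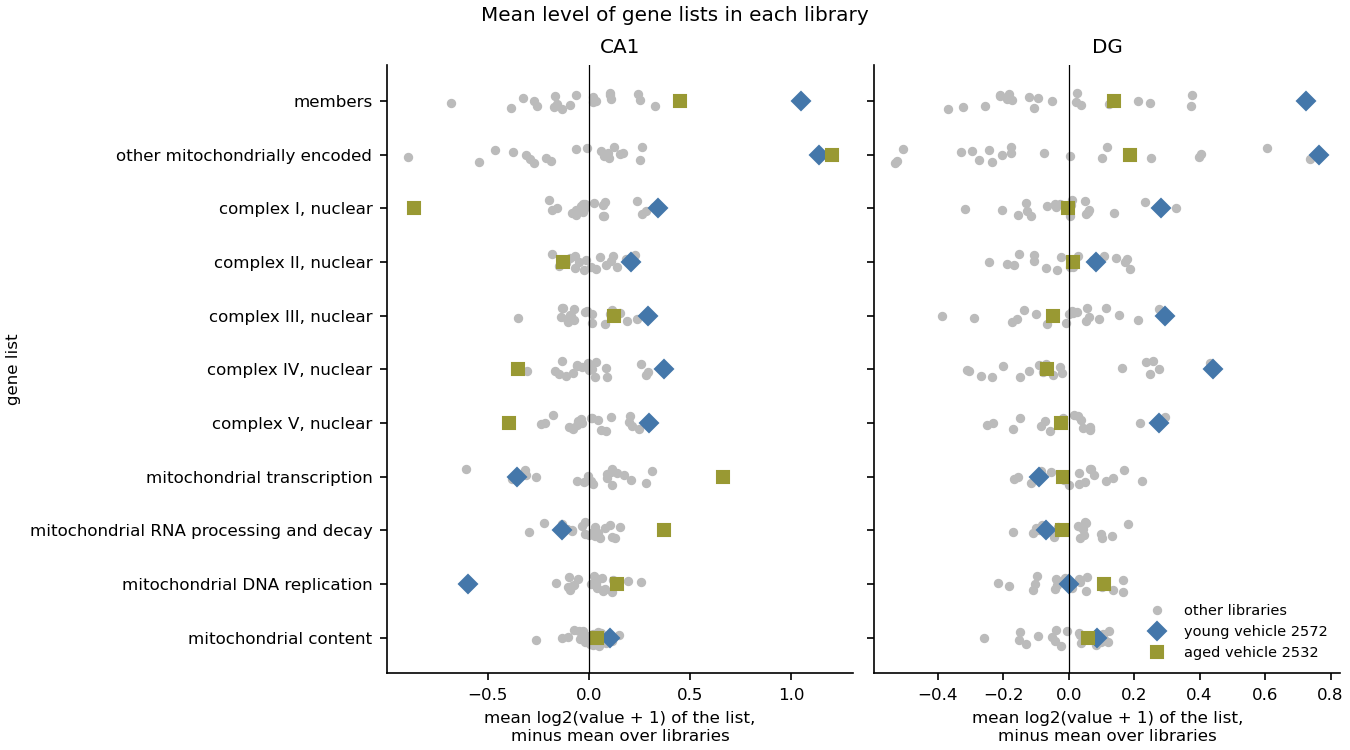
Mean log2(value + 1) of each gene list in each library, minus the mean over libraries (horizontal axis), in CA1 (left) and DG (right), with young vehicle rat 2572 as diamonds, aged rat 2532 as squares and the other libraries as grey points. In CA1 rat 2532 lies lowest for nuclear complexes I, IV and V and highest for mitochondrial transcription, while rat 2572 lies highest for the members.

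Markers of cell types moved with the members to differing degrees. In CA1 the members' mean had a rho of −0.53 with 7 dentate granule markers, 0.46 with 9 CA1 pyramidal markers, 0.60 with 7 microglial, 0.46 with 7 endothelial, 0.41 with 8 astrocyte and 0.37 with 8 oligodendrocyte markers, and 0.10 with 10 interneuron markers. In DG it was −0.66 with granule and −0.17 with pyramidal markers, 0.28 with microglial, 0.46 with endothelial, −0.15 with astrocyte, −0.05 with oligodendrocyte and 0.17 with interneuron markers. Blood markers (3 genes) had 0.62 in CA1 and 0.67 in DG, meningeal markers 0.42 and 0.45, and choroid plexus markers 0.40 and 0.23. Neuronal activity genes had 0.15 and 0.11, and cytosolic ribosomal proteins 0.22 and 0.44. None of the marker lists had a called gene for LPS or age in either region. For young LPS against aged rats in CA1, of 10 interneuron markers only Gad2 was called, lower at −0.52. Of 7 endothelial markers only Egfl7 was called, higher at 0.56. Also called higher were 2 of 23 ribosomal genes, Rps18 and Rplp0, and, of 10 activity genes, Nr4a1, Arc and Egr1. Over all genes 3.49% were called higher and 5.24% lower. Each of these calls was lost in at least 15 of the 22 fits without 1 library. With a dissection score from the regional markers as a term of the fit, the members' median for LPS was −0.24 in CA1 and 0.08 in DG, with 0 members called. What else these markers contribute to the members' values was not tested.

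The genes most like the members over the 22 libraries were named, as a description, from the 13004 genes in CA1 and 13000 in DG that passed the filter and have a gene symbol. In CA1 the highest rho with the members' mean was that of Nipal2 at 0.83, Ntm at 0.80, Elovl5 at 0.77 and Cd34 at 0.76, and the lowest that of Sun1 at −0.89, Haghl at −0.87, Trim11 at −0.82 and Acyp1 at −0.81. In DG the highest were Cd59 at 0.86, Lix1 at 0.85, Timm17a, a subunit of the inner membrane import machinery, at 0.83 and Fkbp3 at 0.82, and the lowest Ift122 at −0.90, Tub at −0.88, Lpin2 at −0.87 and Arhgef2 at −0.84. None of the 16 was on both lists.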

How the data were processed

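For each region the authors deposited normalized counts of reads per gene, a non-negative signal. Per the submitters' processing notes, STAR, Partek, DESeq2 and build rn6 are listed, without versions or roles. The annotation, the use of strand and the handling of reads with several matches are not stated in those sources. Each library's values are whole multiples of a step, the value of 1 read: dividing by it gave whole reads, within 0.1, for 99.68% of CA1 and 99.98% of DG values. In 2 CA1 libraries (young vehicle 2571, aged vehicle 2411) the step was too close to 1 to be recovered, and they were left out of the count models. Counting error covers the sampling of reads only.

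Genes reaching a value of 10 in 6 or more libraries of their region (14915 in CA1, 14904 in DG) were tested on log2(value + 1), which understates differences of low genes. Limma 3.58.1 (R 4.3.3; trend and robust) fitted the 3 groups of a region together, with p adjusted by Benjamini and Hochberg and 0.05 as the threshold. The regions were compared by the same test on CA1 minus DG within each rat, a pairing that comes from the labels, since both pieces of tissue are from the same animal. Ratios were tested with a two-sided exact permutation test. Alternatives were edgeR 4.0.16 and DESeq2 1.42.0 on recovered reads, scaling, filters, pseudocounts, library weights, number series or dissection score as terms, 2 groups alone and each library left out. The fits were tested on simulated data.

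The members and lists were chosen with earlier results of these data known. Named genes are all members, up to 4 called genes per other list with the smallest p, a fixed set of reference genes, and the 4 highest and 4 lowest correlations with the members' mean per region. Protein, gene and promoter sequences of the members were not used here.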

Additional observations from a re-analysis of the deposited data

Results flagged for a closer look

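In 18 of 69 groups of values, 1 rat lay far from the rest of its group. The rule was a gap to the next value, over the whole range, above Dixon's 95% limit. For independent groups of normally distributed values chance alone gives about 1 in 20. The shape of the distributions was not tested. These groups are not independent, since members of a library move together and the share is built from them. The 18 are therefore not separate events, and their count cannot be set against that rate. Young vehicle rat 2572 accounted for 12 of the 18. In CA1 it had 237551 normalized reads of Mt-nd1, 199243 of Mt-nd2, 220123 of Mt-nd4, 812627 of Mt-co1, 446394 of Mt-co2, 344044 of Mt-co3 and 425516 of Mt-atp6, and 15.3% of its library in the members. In DG it had 589511 of Mt-co1, 284571 of Mt-co2 and 271441 of Mt-co3, and 12.4% of its library in the members.

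Aged rat 2532 accounted for 4, with 286395 normalized reads of Mt-nd1, 140 of Mt-nd6 and 354500 of Mt-co3 in CA1 and 89525 of Mt-nd4 in DG. In DG the next aged rat had 77616 of Mt-nd4. Young LPS rat 2573 had 100671 normalized reads of Mt-nd5 in DG, and young LPS rat 2543 had 237616 of Mt-cyb in DG, against 173198 in the next LPS rat.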

How the results depend on the processing

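No member passed the threshold within a region under any of the 2052 alternatives to the single-gene tests (14 settings and 22 fits without 1 library in each comparison); the lowest adjusted p by limma, edgeR or DESeq2 was 0.0890. Differences between the regions passed in 5 of 675 alternatives, all for Mt-co3 in young LPS against aged rats. The count of members called in that comparison was 1 in place of 0 with the number series as a term, and ranged from 0 to 1 without 1 rat each (1 without rat 2411, 2523, 2547 or 2717). Without the replicate block, that is without pairing the regions of a rat, 0 members were called in each of the 3 comparisons. Median differences of the members changed sign where the report says so; in CA1 they were also 0.07 for LPS and 0.16 for age with library weights, and in DG −0.0052 for LPS with the number series and 0.03 for age with library weights. Each of these moved by less than the spread between rats, and no direction had been called. Leaving out rats 2572 and 2532 together was chosen after seeing the data and called 0 members. Depth limits Mt-nd6 most.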
